A study of Mus musculus with 8 samples.

Results

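The HMGA genes are the 3 rows of the count table named *Hmga1*, *Hmga1b* and *Hmga2*, of 50600 genes listed. They were picked because they stood among those of lowest p for the drug, that is, they were chosen by their p for capmatinib against vehicle in these libraries, so their response to the drug is given as a description, with no test, and tests are kept for the comparison of the 2 lines. The choice by p also favours genes with little spread between libraries and, since both lines were fitted together, with little interaction of line and drug, so the interaction is described by its interval. All 3 passed the filter on low counts (at least 10 counts in at least 2 libraries, which 14497 genes met). The libraries came from NF1-MET, a mouse line of malignant peripheral nerve sheath tumour (MPNST) from an animal that was Nf1 fl/ko and carried the transgenes lox-stop-loxMET tg/+ and, with the Plp promoter driving an inducible Cre, Plp-creERT tg/+, and from NF1-MET;sgP53, its derivative made with a lentiviral CRISPR guide against *Trp53*. Both lines therefore share the *Nf1* alleles and the *MET* transgene, and by the study's description also extra copies of *Met* and loss of *Cdkn2a*. The study read that loss from whole-genome sequencing of NF1-MET DNA. Counts were nonetheless assigned to *Cdkn2a*, at group means between 8.99 and 11.2 CPM. Counts per gene do not show which exons they came from, so they cannot show whether the locus is deleted. The study also describes an empty-vector control of NF1-MET, and the descriptions of the 4 NF1-MET libraries begin with SEV, an abbreviation the labels do not spell out. Their titles and genotype labels do not say whether they were that control, so any effect of the vector cannot be told apart from the line. Each line was given DMSO vehicle or 100 nM capmatinib, an inhibitor of the MET receptor kinase, for 24 h, with 2 libraries in each of the 4 groups. There was 1 line of each *Trp53* state, so loss of p53 and any other difference between the lines cannot be told apart, and the replicates, labelled biological, were treated in duplicate, so each p measures the spread between samples treated side by side.

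HMGA proteins are small, non-histone chromatin proteins that bind the minor groove of AT-rich DNA through short AT-hook motifs and bend it, which helps transcription factors assemble on enhancers and promoters. *Hmga1* and *Hmga2* encode the family's main members and *Hmga1b* is annotated as a separate gene for an HMGA1 protein. The genes are highly expressed in embryos, low in most adult tissues and high again in many tumours, and *Hmga2* mRNA is a classic target of the let-7 microRNAs, which bind its 3′ UTR and are held back in early cells by LIN28.

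*Hmga1* and *Hmga1b* could be only partly separated by sequence. *Hmga1* (ENSMUSG00000046711) lies on the plus strand of chromosome 17 at chr17:27556497-27563674 in mm10, and *Hmga1b* (ENSMUSG00000078249) on the plus strand of chromosome 11 at chr11:120762794-120764419. A transcript of *Hmga1* of 1681 bases and the *Hmga1b* transcript of 1626 bases aligned over 1602 bases, of which 1599 (99.8%) were identical, and the 321 coding bases did not differ. The 3 differing bases were all in the 3′ UTR: A736G, A863G and G1325T, with the *Hmga1* base first, the position counted from 1 at the 5′ end of the *Hmga1* transcript, and the *Hmga1b* base last. Windows of 50 bases occurred also in another gene for 86.0% of positions in *Hmga1*, 89.0% in *Hmga1b* and 5.05% in *Hmga2*. Fragments of 300 bases had both 50-base ends in another gene for 72.6% of positions in *Hmga1*, 75.6% in *Hmga1b* and 0% in *Hmga2*. STAR's gene counts leave out reads that map to several places, so the levels of *Hmga1* and *Hmga1b* rest on a part of each transcript and their values are not independent of each other. The exons of *Hmga1b* fill its whole span of 1626 bases. Whether the counts placed on *Hmga1b* came from its own transcript was not tested.

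*Hmga2* (ENSMUSG00000056758) is on the minus strand of chromosome 10 at chr10:120361275-120476469. The annotation places the non-coding antisense gene *1700006J14Rik* within it, with 140 exon bases in common, and exons of *Hmga1* overlap 124 bases of the antisense genes *AI413582* and *Gm49774*. Whether counts were taken by strand was not given in the sources used here, so reads in these stretches cannot be assigned to one strand.

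The let-7 pairing sites are shown because they set *Hmga2* apart within the family by sequence. The mature let-7a has its seed (bases 2 to 8) in capitals, and in each site the capitals mark the 7 bases complementary to that seed, written 5′ to 3′ on the transcript's strand. The *Hmga2* 3′ UTR of 2980 bases held 4 such matches, at chr10:120364224-120364246, chr10:120362987-120363009, chr10:120362549-120362571 and chr10:120361691-120361713 in the order of the lines. The 3′ UTR of *Hmga1* held 1, at chr17:27563277-27563299, and *Hmga1b* carried the same 23 bases at chr11:120763998-120764020. The miRNA sequence is from RefSeq, and the transcripts are from GENCODE release M21 on mm10.
let-7a-5p: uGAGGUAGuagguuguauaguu
Hmga2 site 1: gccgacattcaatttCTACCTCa
Hmga2 site 2: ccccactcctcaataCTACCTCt
Hmga2 site 3: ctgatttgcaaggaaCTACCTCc
Hmga2 site 4: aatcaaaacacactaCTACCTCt
Hmga1 and Hmga1b site: tcctctgttcacaaaCTACCTCt

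Of 20681 genes with an annotated 3′ UTR, 1959 (9.47%) held at least 1 CTACCTC and 12 (0.0580%) held at least 4, *Hmga2* among them. The sequences describe pairing by letters only. These poly(A) libraries do not measure mature miRNAs.

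The promoters of the genes are shown because *Hmga1* and *Hmga1b*, alike in their transcripts, were not alike upstream. Each line gives the 250 bases before a RefSeq start (GRCm38.p6, the mm10 assembly), 5′ to 3′ on the gene's strand, at chr17:27556324-27556573 for *Hmga1*, chr11:120762544-120762793 for *Hmga1b* and chr10:120476470-120476719 for *Hmga2*. The capitals mark the matches found to GGGCGG, the GC box, and TGANTCA, the AP-1 motif, on either strand.
Hmga1: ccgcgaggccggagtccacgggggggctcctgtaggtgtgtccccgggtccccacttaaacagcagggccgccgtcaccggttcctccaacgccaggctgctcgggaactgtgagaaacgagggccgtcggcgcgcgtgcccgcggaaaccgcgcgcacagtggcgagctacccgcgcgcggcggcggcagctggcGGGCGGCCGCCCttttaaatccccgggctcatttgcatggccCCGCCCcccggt
Hmga1b: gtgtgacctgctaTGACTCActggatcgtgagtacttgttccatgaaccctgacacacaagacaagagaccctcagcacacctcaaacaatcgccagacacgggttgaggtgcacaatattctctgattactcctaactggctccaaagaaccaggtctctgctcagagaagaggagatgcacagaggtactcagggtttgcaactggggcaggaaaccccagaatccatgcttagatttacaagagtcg
Hmga2: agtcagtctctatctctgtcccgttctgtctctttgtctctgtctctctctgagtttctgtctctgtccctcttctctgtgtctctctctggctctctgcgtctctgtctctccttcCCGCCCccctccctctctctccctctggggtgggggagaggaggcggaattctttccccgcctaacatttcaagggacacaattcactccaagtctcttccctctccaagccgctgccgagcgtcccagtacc

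The *Hmga1* window shown had 72.8% G and C with 34 CpG and 3 matches to the GC box, of which a pair on opposite strands adjoined without overlap in the longer run of capitals. The window before another RefSeq start of *Hmga1*, at chr17:27556354-27556603, had 73.2% G and C with 35 CpG and 4 matches to the GC box. The *Hmga1b* window had 49.6% G and C with 4 CpG, 1 match to the AP-1 motif and none to the GC box. The *Hmga2* window had 56.4% G and C with 8 CpG and 1 match to the GC box, on the opposite strand. Of 32544 promoter windows of that length, 33.0% held the GC box and 6.73% the AP-1 motif. The E-box CACGTG, the E2F-like motif TTTNNCGC, the TEAD motif GGAATG and the ETS motif CCGGAAG were also searched on both strands and had no match in any of these windows, against 6.03%, 4.31%, 12.6% and 6.95% of all windows. A match is not a binding site, and no match says only that these letters were not in the window.

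The 8 libraries held between 30.1 M and 42.8 M counts. The non-coding gene *Gm42418* took between 1.11% and 13.1% of them and differed between replicates, from 1.11% in NF1-MET;sgP53 capmatinib replicate 2 to 10.0% in replicate 1. *Trp53* itself was at 182 and 193 CPM (library-scaled counts, per M counts) in NF1-MET vehicle and at 97.5 and 100.1 CPM in NF1-MET;sgP53 vehicle, a log2 difference of −0.94, which accords with its label in direction but leaves the transcript present. Of 10 Schwann cell and neural crest markers, 5 passed the filter, and the summed level of the 10 was between 21.4 and 24.0 CPM in vehicle and between 6.94 and 7.75 CPM in capmatinib, most of it *Gap43* in vehicle. *Sox10* was at or under 0.176 CPM and *S100b* at or under 0.492 CPM in every library, so the defining Schwann cell markers were at or near 0. Macrophage markers summed to between 9.14 and 12.9 CPM in vehicle and between 5.93 and 8.13 CPM in capmatinib. Endothelial markers summed to at most 0.358 CPM in vehicle and 0.142 CPM in capmatinib, and epithelial markers to at most 0.727 CPM and 0.142 CPM.

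Under capmatinib all 3 HMGA mRNAs were 5 to 7 times lower in both lines. *Hmga1* was at 494.7 and 494.2 CPM in NF1-MET vehicle, at 72.2 and 70.5 CPM in NF1-MET capmatinib, at 435 and 419.7 CPM in NF1-MET;sgP53 vehicle and at 59.3 and 60.5 CPM in the sgP53 line with capmatinib. *Hmga1b* was at 199 and 202 CPM, 32.4 and 30.0 CPM, 171 and 175 CPM and 25.5 and 27.7 CPM in the same order. *Hmga2* was at 828 and 819 CPM, 161.1 and 160.0 CPM, 659 and 666 CPM and 130.0 and 128.7 CPM. For each gene the 4 vehicle libraries lay above the 4 capmatinib libraries, and within each treatment both NF1-MET libraries lay above both NF1-MET;sgP53 libraries. The order of the groups was therefore the same for the 3 genes, with NF1-MET vehicle highest, NF1-MET;sgP53 vehicle next, then NF1-MET capmatinib, and NF1-MET;sgP53 capmatinib lowest, and no neighbouring groups in this order overlapped. Vehicle and capmatinib libraries did not overlap for 64.8% of all genes.

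**Figure D1:**
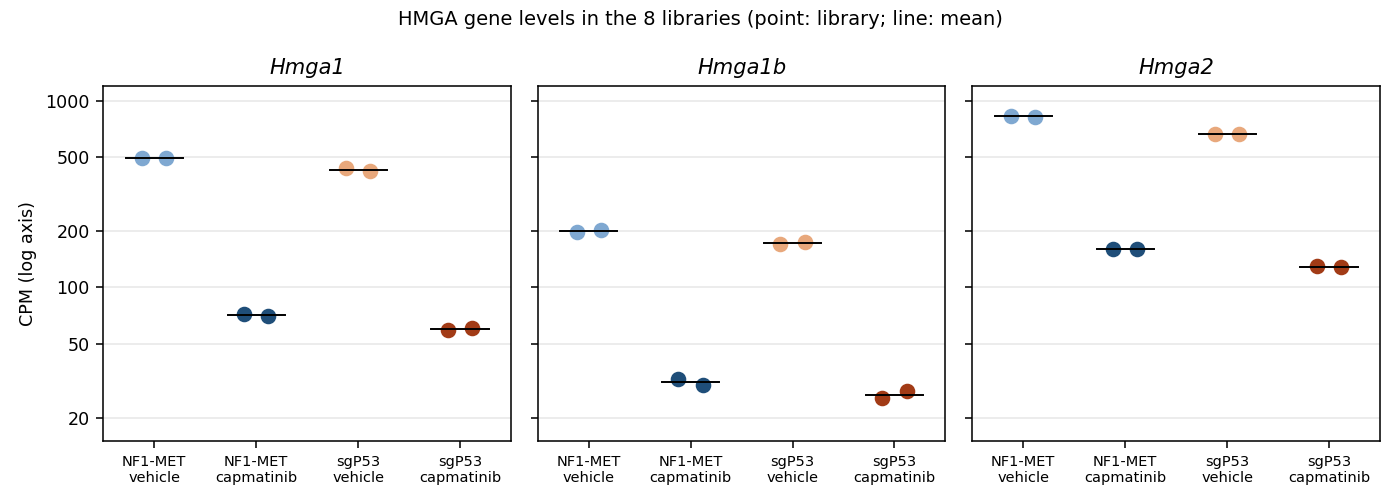
Level of *Hmga1*, *Hmga1b* and *Hmga2* in CPM (log axis) in the 4 groups, with a point for each of the 2 libraries of a group and a line at their mean. The 4 capmatinib libraries sit below the 4 vehicle libraries for each gene, and *Hmga2* goes from 823 CPM to 160.5 CPM on average in NF1-MET.

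The replicates lay close together. The group means were 494 ± 0.325, 71.4 ± 1.25, 427 ± 10.9 and 59.9 ± 0.809 CPM for *Hmga1* (SD, n = 2), 200.5 ± 2.04, 31.2 ± 1.72, 173 ± 2.71 and 26.6 ± 1.59 CPM for *Hmga1b*, and 823 ± 6.50, 160.5 ± 0.778, 663 ± 4.77 and 129 ± 0.910 CPM for *Hmga2*, in the order of groups given above for the libraries. The counts behind them ranged from 1999 to 19710 for *Hmga1*, from 897 to 8053 for *Hmga1b* and from 4457 to 32655 for *Hmga2*. Summed over *Hmga1* and *Hmga1b*, the means were 695, 103, 600.3 and 86.5 CPM.

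Per kilobase of the longest transcript (2001 bases for *Hmga1*, 1626 for *Hmga1b* and 3810 for *Hmga2*), *Hmga1* was at 247 CPM per kb, *Hmga2* at 216 and *Hmga1b* at 123 in NF1-MET vehicle, and at 35.7, 42.1 and 19.2 in NF1-MET capmatinib. On this scale *Hmga1* was above *Hmga2* in vehicle and below it in capmatinib, also in NF1-MET;sgP53 (214 against 174 in vehicle, and 29.9 against 34.0 in capmatinib). Per kilobase of all annotated exon bases (2125, 1626 and 6772 bases), *Hmga1* was above *Hmga2* in all 4 groups, with 33.6 against 23.7 in NF1-MET capmatinib, so the order under capmatinib depends on the length used. Both lengths also hold the stretches whose reads are left out because they occur in another gene. Fragments had both ends in such stretches for 72.6% of positions in *Hmga1*, 75.6% in *Hmga1b* and 0% in *Hmga2*. Levels per kilobase and ranks of *Hmga1* and *Hmga1b* may therefore be too low beside *Hmga2*, by an unknown amount. By level per kilobase of the longest transcript among 14472 genes with a length, *Hmga1* ranked 149 in NF1-MET vehicle and 1608 in NF1-MET capmatinib, *Hmga2* 181 and 1360, and *Hmga1b* 357 and 3122. In NF1-MET;sgP53 the ranks were 181 and 1954, 247 and 1708, and 439 and 3589.

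In NF1-MET the log2 fold change with capmatinib was −2.81 (SE 0.0266) for *Hmga1*, −2.71 (SE 0.0353) for *Hmga1b* and −2.38 (SE 0.0234) for *Hmga2*, or 7.02-fold, 6.53-fold and 5.19-fold lower levels. In NF1-MET;sgP53 it was −2.83 (SE 0.0339), −2.70 (SE 0.0423) and −2.36 (SE 0.0296), or 7.13-fold, 6.50-fold and 5.12-fold. The contrast that chose the genes takes both lines together with the line as a covariate. There the log2 fold changes were −2.81, −2.69 and −2.36, and by p the genes ranked 2 (*Hmga1*), 3 (*Hmga2*) and 11 (*Hmga1b*) of 14497. By log2 fold change they ranked 104, 162 and 116 from the lowest. In that contrast 73.7% of all genes were called at an adjusted p under 0.05 (edgeR's quasi-likelihood test), 5.06% had a log2 fold change below −1 and 1.57% one below −2. Within each line taken alone, NF1-MET had 70.2% of genes called and NF1-MET;sgP53 67.6%. *Hmga2*'s fold was the smallest of the 3 in both lines.

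Of the counts assigned to *Hmga1* or *Hmga1b*, *Hmga1b* held between 28.2% and 29.4% in the 4 vehicle libraries and between 29.9% and 31.4% in the 4 capmatinib libraries. The 2 ranges did not overlap, but the 95% Wilson intervals of single libraries did: 28.9% to 30.0% in NF1-MET;sgP53 vehicle replicate 2 against 28.4% to 31.3% in NF1-MET capmatinib replicate 2. These intervals cover counting error only. Since the share compares the same libraries as the drug contrast, it is a description too.

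**Figure D2:**
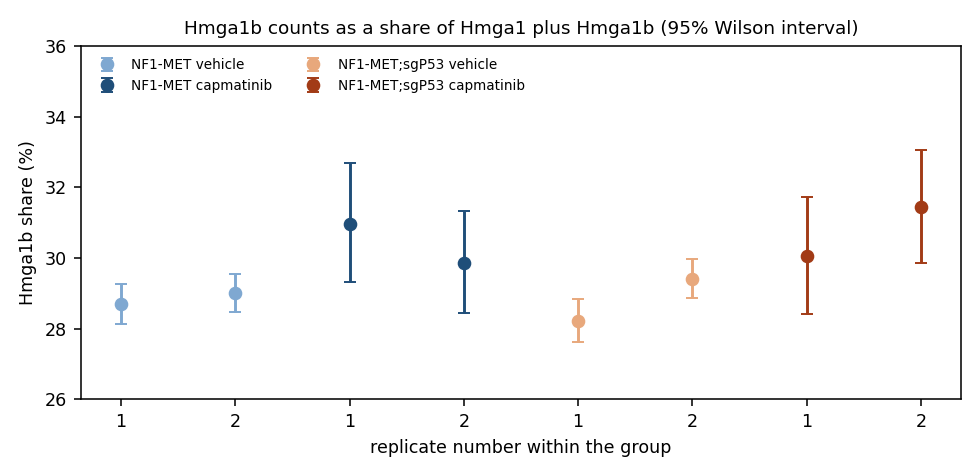
*Hmga1b* counts as a percent of the counts of *Hmga1* and *Hmga1b* together in each library, with 95% Wilson intervals (the axis starts at 26%). Vehicle libraries lie between 28.2% and 29.4% and capmatinib libraries between 29.9% and 31.4%.

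The NF1-MET;sgP53 line held less of all 3 HMGA mRNAs than NF1-MET, with either treatment. In vehicle, the log2 difference was −0.33 (SE 0.0216, adjusted p = 4.01e-10) for *Hmga2*, which encodes the family member best known from embryonic growth. It was −0.23 (SE 0.0246, adjusted p = 5.56e-07) for *Hmga1* and −0.23 (SE 0.0275, adjusted p = 2.14e-06) for *Hmga1b*. In percent, *Hmga2* fell by 20.6%, *Hmga1* by 14.7% and *Hmga1b* by 14.9%. All are edgeR quasi-likelihood tests whose p-values were adjusted by Benjamini-Hochberg over every gene tested. In this comparison 23.2% of genes were called, 12.3% as lower in NF1-MET;sgP53 and 10.9% as higher, and the groups did not overlap for 60.5% of genes, as they did not for the 3 HMGA genes.

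With capmatinib in both lines, the sgP53 line again held less: the log2 difference was −0.31 (SE 0.0317, adjusted p = 1.81e-06) for *Hmga2*, *Hmga1* differed by −0.25 (SE 0.0350, adjusted p = 7.08e-05) and *Hmga1b* by −0.22 (SE 0.0579, adjusted p = 0.0151). Here 12.3% of genes were called, 6.34% as lower and 5.94% as higher, and the groups did not overlap for 52.3% of genes. The *Hmga1b* call was lost without NF1-MET;sgP53 capmatinib replicate 1 (log2 difference −0.16, adjusted p = 0.0604) and by DESeq2's Wald test (−0.23, adjusted p = 0.118). With library totals in place of TMM scaling, the calls were lost for *Hmga1* and *Hmga1b* in vehicle (adjusted p = 0.0818 and 0.0693) and for all 3 genes in capmatinib (0.453, 0.579 and 0.293), and *Hmga2* in vehicle was still called (0.00172). Library totals move with the share taken by *Gm42418*, and with that gene left out of them all 6 calls were made again, with log2 differences between −0.31 and −0.21 and adjusted p between 3.68e-10 and 0.0206 (an alternative chosen after seeing the data).

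**Figure D3:**
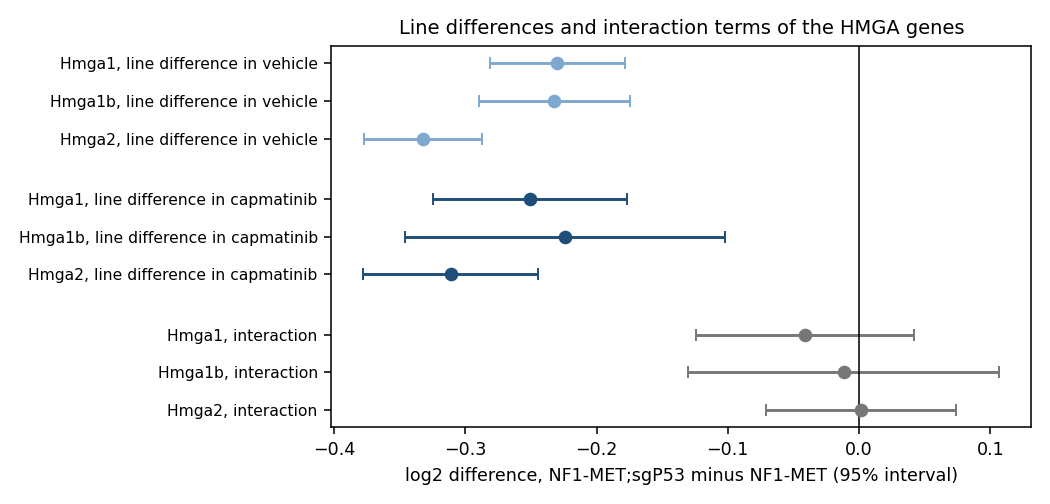
Log2 difference between NF1-MET;sgP53 and NF1-MET (horizontal axis, NF1-MET;sgP53 minus NF1-MET) for each HMGA gene in vehicle and in capmatinib, and the interaction term, with 95% intervals from the edgeR fit. The 6 line differences lie between −0.33 and −0.22 with intervals under 0, and the 3 intervals of the interaction hold 0.

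The log2 fold changes of the HMGA genes with capmatinib lay close together in the 2 lines, as the choice of the genes favours. The interaction of line and treatment, the log2 fold change in NF1-MET;sgP53 minus that in NF1-MET, was −0.04 (SE 0.0402, 95% interval −0.12 to 0.04) for *Hmga1*. It was −0.01 (SE 0.0574, 95% interval −0.13 to 0.11) for *Hmga1b* and 0.0015 (SE 0.0350, 95% interval −0.07 to 0.07) for *Hmga2*. Of all genes, 9.71% had an interaction at an adjusted p under 0.05 by edgeR, and the HMGA genes are not counted against that share. The intervals leave room for differences of up to 0.13 on the log2 scale, beside log2 fold changes of −2.36 to −2.83.

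The genes whose levels ran most like the HMGA genes over the 8 libraries were sought among the 8659 genes that averaged 10 CPM or more, by the Euclidean distance between log2 CPM values centred on each gene's mean. For *Hmga1* the nearest was *Mfap3l* at a distance of 0.132, ahead of *Hmga1b* at 0.203, *Btbd11* at 0.245, *Esm1*, which encodes a secreted proteoglycan of endothelial cells, at 0.276 and *Ndst3*, a heparan sulfate sulfotransferase, at 0.350. *Mfap3l* was at 153 and 146 CPM in NF1-MET vehicle, 22.6 and 20.4 CPM in NF1-MET capmatinib, 127 and 125 CPM in NF1-MET;sgP53 vehicle and 17.0 and 17.2 CPM in the sgP53 line with capmatinib. *Hmga1b* shares most of its sequence with *Hmga1*, and *Mfap3l* came nearer all the same. *Hmga2* was 11th in the list for *Hmga1*, at 0.657.

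For *Hmga2* the nearest were the long non-coding RNA *Wincr1* at 0.259, the integrin subunit gene *Itga6* at 0.286, *Chic1* at 0.288, the Ras exchange factor gene *Rasgrf1* at 0.308 and the EGF receptor ligand gene *Hbegf* at 0.315. *Hmga1b* was 14th (0.504) and *Hmga1* 26th (0.657) in that list, so 13 genes outside the family ran nearer to *Hmga2* than its nearest relative did. *Wincr1* was at 42.5 and 40.6 CPM in NF1-MET vehicle, 7.08 and 8.33 CPM in NF1-MET capmatinib, 31.8 and 33.8 CPM in NF1-MET;sgP53 vehicle and 6.30 and 5.54 CPM in the sgP53 line with capmatinib. The likeness follows the drug response that chose the genes and is a description.

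Genes of other high mobility group families had smaller log2 fold changes with capmatinib than the HMGA genes. The choice of the HMGA genes by their p for capmatinib favours such a gap, so it is a description. Of the 7 HMGB and HMGN genes tested, which encode DNA-bending and nucleosome-binding proteins without AT-hooks, 6 fell and 1 rose with capmatinib in both lines together, with a median log2 fold change of −0.54 beside 0.01 for all genes, of which 38.0% rose and 35.8% fell. *Hmgb3* fell by 1.08 on the log2 scale (from 36.2 to 17.1 CPM on average), *Hmgb2*, which is high in dividing cells, fell by 1.06 (from 148 to 70.8 CPM), and *Hmgn3* rose by 0.65 (from 41.0 to 64.3 CPM). Between the lines in vehicle, where the HMGA genes were lower in NF1-MET;sgP53, edgeR called 0 of these 7 genes, 1 had an unadjusted p under 0.05, and DESeq2 called 0, beside 23.2% of all genes called by edgeR. The count called higher moved in the fit without NF1-MET;sgP53 capmatinib replicate 1, a library outside this comparison. That fit put all remaining libraries in 1 model. With capmatinib edgeR called 3 as higher in NF1-MET;sgP53 (*Hmgn5* by 0.32, *Hmgn3* by 0.17 and *Hmgb1* by 0.13), beside 5.94% of all genes, and DESeq2 called 0 of the 7. Of 11 further genes for HMG-box chromatin proteins, 6 fell and 2 rose with capmatinib (median −0.19), a share called (73.7% over all genes) near that of the whole table, and *Ssrp1*, a subunit of the histone chaperone FACT, fell by 0.63. The 2 that rose became 1 by DESeq2 and without NF1-MET vehicle replicate 2, NF1-MET capmatinib replicate 1 or NF1-MET;sgP53 capmatinib replicate 2.

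Of 14 other genes for proteins with AT-hooks, 9 rose and 4 fell with capmatinib (median 0.19), beside 38.0% and 35.8% of all genes. *Setbp1*, which encodes a SET-binding nuclear protein, rose by 2.65 on the log2 scale, a change near the HMGA genes in size and opposite in sign. It was at 16.4 and 14.4 CPM in NF1-MET vehicle, 109 and 109 CPM in NF1-MET capmatinib, 18.2 and 18.4 CPM in NF1-MET;sgP53 vehicle and 104 and 101 CPM in the sgP53 line with capmatinib. *Dot1l*, the histone H3 lysine methyltransferase, fell by 0.67. Among 7 linker histone genes, whose products compete with HMGA proteins for DNA, 1 rose (*Hist1h1c*, by 0.75) and 1 fell, beside 73.7% of all genes called. The count that fell was 2 without NF1-MET;sgP53 vehicle replicate 2 and 3 without NF1-MET;sgP53 capmatinib replicate 1, and the count that rose was 2 without NF1-MET;sgP53 capmatinib replicate 2. Replication-dependent histone mRNAs mostly lack poly(A) tails, so these libraries hold little of them.

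Genes of the let-7 axis were called about as often as all genes, of which 38.0% rose and 35.8% fell. Of 11 genes tested for let-7 processing, LIN28 and IGF2BP proteins, 2 rose and 6 fell with capmatinib (median −0.09), with *Xpo5*, the exporter of precursor miRNAs, lower by 0.54. Of 14 other mRNAs described as let-7 targets, 3 rose and 7 fell (median −0.12). *Fign* rose by 1.31 (from 13.9 to 34.5 CPM). Of the other 11 genes with at least 4 CTACCTC in the 3′ UTR, a list made after the values of *Hmga2* were seen, 9 were tested, 4 rose and 2 fell, with a median of 0.30, again near the share over all genes.

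Of 16 genes for transcription factors and TGF-beta signalling described as upstream of HMGA genes, 7 rose and 7 fell with capmatinib (median 0.01), beside 73.7% of all genes called. Members of the AP-1 family went both ways: *Fosl1* fell by 1.75 on the log2 scale (from 154 to 45.7 CPM), while *Fos* rose by 3.81 (from 2.77 to 38.8 CPM) and *Junb* by 1.27. In vehicle 5 were lower and 2 higher in NF1-MET;sgP53, beside 12.3% and 10.9% of all genes, with *Tgfb1*, which encodes the ligand TGF-beta 1, lower by 0.62 and *Fosl1* by 0.19. The count of 5 fell on leaving out any 1 of the 4 NF1-MET libraries or of the 2 NF1-MET;sgP53 vehicle libraries. The NF1-MET capmatinib libraries among these are outside the vehicle comparison. Each such fit put all remaining libraries in 1 model, so the move cannot be put down to the library left out. Of 13 genes described as targets of HMGA proteins, 5 rose and 5 fell with capmatinib (median 0.01), also near the share over all genes. Between the lines in vehicle 4 of the 13 were higher and 7 lower in NF1-MET;sgP53, beside 10.9% and 12.3% of all genes, and DESeq2 called 7. The interaction was called for 6 of the 13, beside 9.71% of all genes, 4 of them as higher and 2 as lower, and the 2 became 1 without NF1-MET vehicle replicate 1, NF1-MET capmatinib replicate 2 or NF1-MET;sgP53 capmatinib replicate 2. *Snai2* and *Snai1*, which encode repressors of epithelial genes, rose by 1.63 and 1.34, and the DNA repair gene *Ercc1* fell by 1.46.

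**Figure D4:**
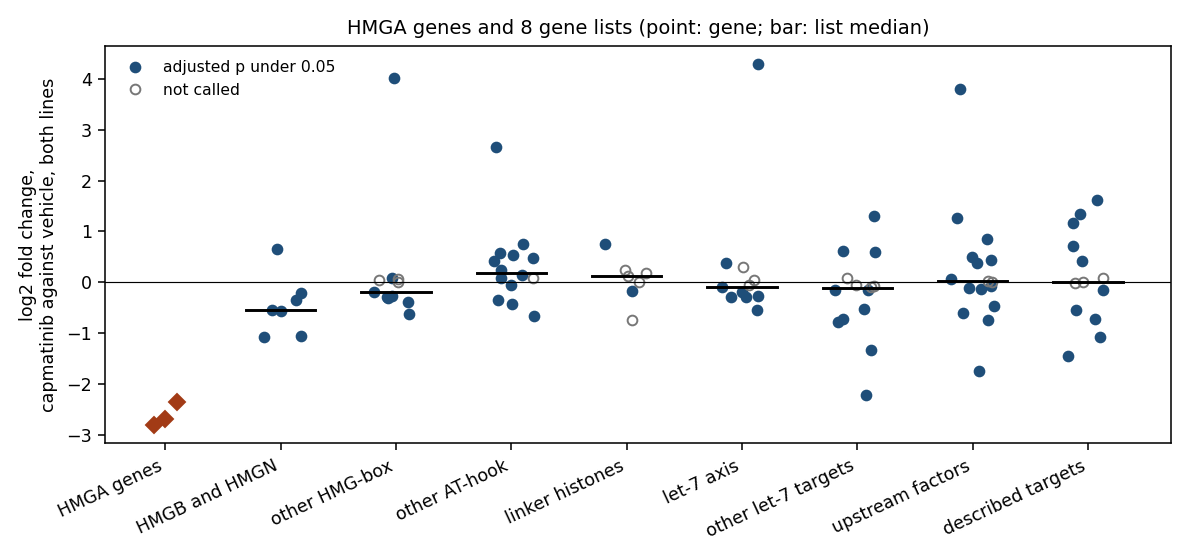
Log2 fold change with capmatinib in both lines together (vertical axis) for the HMGA genes and for the genes of 8 lists that passed the filter, with a point for each gene (filled where the adjusted p was under 0.05) and a bar at each list's median. The HMGA genes, chosen by their p for this contrast, lie between −2.81 and −2.36, and the list medians between −0.54 and 0.19.

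Proliferation markers moved with the HMGA genes. All 10 fell with capmatinib in each line (median log2 fold change −0.81 for NF1-MET and −0.84 for the sgP53 line), where 34.7% and 33.4% of all genes fell, and their summed level was between 2486 and 2608 CPM in vehicle and between 1491 and 1534 CPM in capmatinib. Between the lines in vehicle, where the HMGA genes were lower in NF1-MET;sgP53, edgeR called 3 of the 10 as higher and none as lower, beside 10.9% and 12.3% of all genes, and DESeq2 called 2. Fibroblast and smooth muscle markers moved with both the drug and the line. Of 7, 5 rose and 2 fell with capmatinib in both lines together, beside 38.0% and 35.8% of all genes, and their summed level went from between 3460 and 5028 CPM in vehicle to between 24826 and 25703 CPM in capmatinib. In vehicle 6 of the 7 were higher and none lower in NF1-MET;sgP53, beside 10.9% and 12.3% of all genes, with log2 differences of 1.83 for *Tagln*, 1.82 for *Myl9* and 1.09 for *Acta2*, which encode contractile proteins of smooth muscle. The interaction was negative and called for 5 of the 7, by edgeR and by DESeq2, beside 9.71% of all genes called by edgeR. The sum of the 7 was between 3460 and 3548 CPM in NF1-MET vehicle and between 4996 and 5028 CPM in NF1-MET;sgP53 vehicle. The part of cell division or cell state in the HMGA levels was not tested, and in bulk samples fewer cells with a transcript and less of it in each cell cannot be told apart.

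Around the HMGA genes, 126 genes of the table start within 500 kb, of which 60 passed the filter. With capmatinib 19 of them rose and 27 fell (median −0.10), beside 38.0% and 35.8% of all genes tested. Near *Hmga1*, 6 of 12 genes fell and 1 rose. The called changes ran from −0.37 for *Itpr3*, an inositol trisphosphate receptor gene that starts 499 kb upstream, to 0.11, with *Nudt3*, 67.0 kb downstream, lower by 0.12 and the ribosomal protein gene *Rps10*, 80.2 kb downstream, by 0.22. The overlapping gene *AI413582* had a log2 fold change of 0.25 in both lines together (adjusted p = 0.0677, edgeR), with a rise of 0.50 in NF1-MET (adjusted p = 0.000821) and a value of 0.00021 in the sgP53 line (adjusted p = 0.999), and an interaction of −0.51 (adjusted p = 0.0740). Near *Hmga1b*, 18 of 40 genes fell and 14 rose (median −0.05). There *Cbr2*, a carbonyl reductase gene, rose by 3.39 on the log2 scale, and *Fasn* fell by 0.96. Around *Hmga2*, 8 genes were tested, of which 4 rose and 3 fell. The antisense gene *1700006J14Rik*, which starts within *Hmga2*, fell by 1.84, from 1.38 to 0.355 CPM on average in NF1-MET, and *4930471E19Rik*, 223 kb upstream, fell by 2.27, from 2.97 to 0.620 CPM. The antisense gene shares exon bases with *Hmga2*, so its reads cannot be told apart from those of *Hmga2* without strand. *Msrb3*, which encodes a methionine sulfoxide reductase and starts 423 kb upstream, rose by 2.02, from 60.9 and 59.0 CPM in NF1-MET vehicle to 301.2 and 295 CPM in NF1-MET capmatinib. The low gene *Gm4473*, also 423 kb upstream, rose by 1.79, from 0.199 to 1.14 CPM in NF1-MET, and *Irak3*, downstream, by 1.83, from 0.343 to 1.08 CPM. *Tmbim4* rose by 0.58 and *Llph* fell by 0.46 downstream of the gene.

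**Figure D5:**
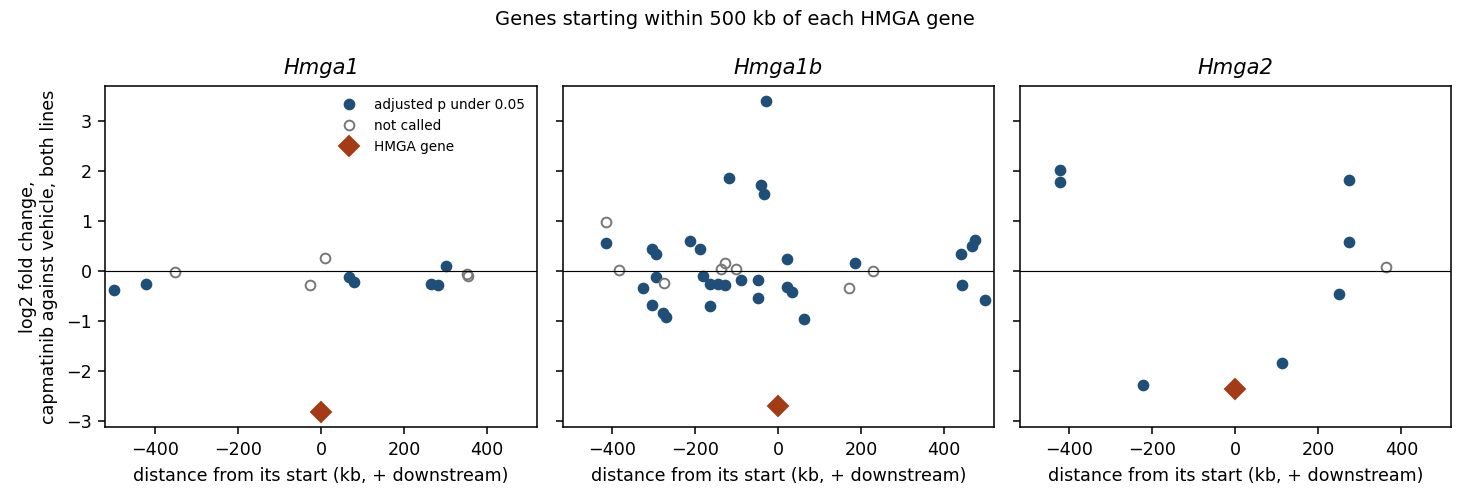
Log2 fold change with capmatinib in both lines together (vertical axis) of genes that start within 500 kb of each HMGA gene, by distance from its start in kb (positive is downstream), with the HMGA gene as a diamond at 0. Near *Hmga2*, *4930471E19Rik* (−2.27) and *1700006J14Rik* (−1.84) lie low and *Msrb3* (2.02), *Irak3* (1.83) and *Gm4473* (1.79) high.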

How the data were processed

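RNA of the NF1-MET line and of its NF1-MET;sgP53 derivative was sequenced as poly(A) libraries, 2 for each line and treatment. The authors trimmed reads with Trim Galore 0.4.2, mapped them to mm10 with STAR 2.5.2b and deposited the raw count per gene that STAR gave, with no normalization. No version of the annotation and no strand setting was given in the sources used here. All columns were used. The members and the gene lists were chosen with earlier results of these data known.

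Positions and transcripts came from GENCODE release M21, which held 50376 of the identifiers (99.6%). Fits used R 4.3.3 and edgeR 4.0.16 (quasi-likelihood test in its original form, checked on simulated data), with TMM factors and dispersions within the libraries of a comparison and Benjamini-Hochberg adjustment over all genes at a threshold of 0.05. The SE was the log2 fold change divided by the root of F. CPM were set on TMM factors over the 8 libraries, between 0.898 and 1.10, and log2 CPM had a prior count of 2. Each comparison fitted its own libraries and the interaction all 8. Biological coefficients of variation ran from 2.34% to 4.49%. Alternatives used DESeq2 1.42.0 (size factors or Wald test), library totals, other filters, the bias-adjusted quasi-likelihood method, a single model of all libraries, leaving out each library, no *Gm42418*, *Hmga1* and *Hmga1b* summed, and a replicate block. Each fit that left out a library put all remaining libraries in 1 model of the 4 groups. A count that moved there may follow from the model as well as from the library. Named genes are the HMGA genes, *Trp53* and *Gm42418*, up to 3 genes a list and comparison with the largest change among called genes without overlap and with at least 10 CPM in the higher group, neighbours within 500 kb, and the 5 genes most like *Hmga1* and *Hmga2*. *Sox10*, *S100b* *Gap43* and *Cdkn2a* were named as well.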

Additional observations from a re-analysis of the deposited data

Results flagged for a closer look

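Some genes whose values are given beside the HMGA genes had an interaction of line and treatment past the threshold. They are given here with the interaction, the log2 fold change with capmatinib in NF1-MET;sgP53 minus that in NF1-MET, from edgeR's quasi-likelihood test over all 8 libraries, adjusted over all genes. Among the genes near the HMGA genes, *Msrb3* had an interaction of −0.577 (adjusted p = 5.63e-10), with a log2 fold change of 2.30 in NF1-MET and 1.74 in the sgP53 line, and *Cbr2* one of −0.918 (adjusted p = 1.35e-04). Of the genes most like *Hmga2*, *Itga6* had an interaction of 0.225 (adjusted p = 9.47e-04), *Chic1* one of 0.298 (adjusted p = 0.0125) and *Rasgrf1* one of 0.324 (adjusted p = 0.0149), with a log2 fold change of −2.53 in NF1-MET and −2.19 in the sgP53 line for *Rasgrf1*. Of the chromatin protein genes, *Setbp1* had −0.338 (adjusted p = 0.00102), *Dot1l* 0.346 (adjusted p = 2.71e-05), *Hist1h1c* 0.301 (adjusted p = 0.0239), *Hmgb1* 0.181 (adjusted p = 0.0264) and *Hmgn5* 0.409 (adjusted p = 0.0130). Of the factors and described targets, *Tgfb1* had 0.384 (adjusted p = 7.33e-05), *Fos* −0.513 (adjusted p = 0.0349) and *Snai2* −0.465 (adjusted p = 1.22e-04). Of the smooth muscle markers, *Tagln* had −1.57 (adjusted p = 7.76e-19, with log2 fold changes of 4.46 in NF1-MET and 2.90 in the sgP53 line), *Myl9* −1.53 (adjusted p = 1.12e-16, 5.70 and 4.18) and *Acta2* −0.998 (adjusted p = 1.39e-20, 4.17 and 3.19). *Cdkn2a* had 0.591 (adjusted p = 0.00997), with log2 fold changes of −0.34 in NF1-MET and 0.27 in the sgP53 line. For each of these genes except *Hist1h1c*, the log2 fold change was nearer to 0 in NF1-MET;sgP53 than in NF1-MET. By DESeq2's Wald test the calls were lost for *Fos* (adjusted p = 0.0665), *Hist1h1c* (adjusted p = 0.0603), *Hmgn5* (adjusted p = 0.0505) and *Rasgrf1* (adjusted p = 0.05001), and the other 13 were called.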

How the results depend on the processing

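The HMGA genes were lower with capmatinib and lower in NF1-MET;sgP53 under every alternative run. Library totals gave log2 fold changes with capmatinib of −2.995, −2.89 and −2.56 (*Hmga1*, *Hmga1b*, *Hmga2*) in NF1-MET, −2.96, −2.82 and −2.48 in the sgP53 line and −2.98, −2.85 and −2.52 in both lines, while the median of all genes moved to −0.18, −0.12 and −0.15. Library totals without *Gm42418* gave −2.92, −2.82 and −2.49, then −2.96, −2.82 and −2.48, then −2.94, −2.82 and −2.48. With *Hmga1* and *Hmga1b* summed, *Hmga1* had −2.78, −2.79 and −2.78. *Hmga2* had −2.36 in NF1-MET with all 8 libraries in 1 model and −2.38 in NF1-MET;sgP53 with no filter. Line calls lost were, with library totals, *Hmga1* (−0.17) and *Hmga1b* (−0.18) in vehicle and *Hmga1* (−0.14), *Hmga1b* (−0.11) and *Hmga2* (−0.20) in capmatinib, and, with DESeq2's Wald test, *Hmga1b* in capmatinib (−0.23). The sign of the interaction, near 0 throughout, changed for *Hmga1* with library totals (0.0380) and for *Hmga1b* with DESeq2 size factors (0.0016), library totals (0.0657), DESeq2's Wald test (0.0020), no filter (0.0138) and no *Gm42418* (0.0236). The cause of these changes was not tested beyond leaving out *Gm42418*.

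Leaving out each library in turn, where a lone library of a group is assumed to vary like the other groups, gave in NF1-MET between −2.81 and −2.78 for *Hmga1*, −2.74 and −2.63 for *Hmga1b* and −2.38 and −2.35 for *Hmga2*. In NF1-MET;sgP53 it gave between −2.86 and −2.81, −2.75 and −2.64, and −2.37 and −2.33, and in both lines between −2.83 and −2.80, −2.73 and −2.66, and −2.36 and −2.35. The line differences ran in vehicle between −0.24 and −0.18, −0.23 and −0.20, and −0.33 and −0.30, and in capmatinib between −0.27 and −0.23, −0.28 and −0.16, and −0.32 and −0.29. The only line call lost was *Hmga1b* in capmatinib without NF1-MET;sgP53 capmatinib replicate 1. The interactions ran between −0.0672 and −0.0152, −0.0720 and 0.0481, and −0.0066 and 0.0430. Replicate numbers did not pair the libraries (correlations of the replicate differences between groups from −0.05 to 0.10). With a replicate block, the line differences in vehicle were −0.23, −0.23 and −0.33 and no HMGA call changed. Of the counts for the gene lists, 1734 stayed within 1.5 times and 210 moved further (34 of them with library totals and 21 with DESeq2's Wald test). Of those printed above, library totals gave, in vehicle, 1 lower and 1 higher for the upstream factors, 3 lower for the described targets and, in capmatinib, 1 higher for the HMGB and HMGN genes; with capmatinib in both lines, 1 HMG-box gene rose and 3 linker histone genes fell, and no described target had a negative interaction. Library totals without *Gm42418* gave 3 lower for the upstream factors, 1 HMG-box gene that rose and 1 HMGB or HMGN gene higher in vehicle, and the replicate block 1 of the latter lower. DESeq2 gave 2 described targets higher in vehicle. Without the filter 1 HMG-box gene rose, and with the stricter one 1 HMG-box and 1 let-7 axis gene. By length, 8 of 12 levels per kilobase moved with the length used. With 2 libraries a group, the SE of the fits rests on spread shared over genes.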
